A study of Mus musculus with 9 samples.

Results

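The 10 genes described here are 4 receptors of the Notch pathway (Notch1, Notch2, Notch3 and Notch4), 3 of its ligands (Jag1, Jag2 and Dll4) and 3 of its target genes (Hes1, Hey1 and Heyl). They were picked by gene symbol from an mRNA table of mouse liver, with earlier results of these data known. All 10 were found among its 21873 genes. Liver RNA was sequenced from 9 male C57BL/6 mice, a common inbred strain, which were 8 weeks old at the start. The control group (n = 3) received normal saline i.p. for 8 weeks. The TAA group (n = 3) received thioacetamide, a compound that injures hepatocytes and leads to fibrosis, every 3 days for the same 8 weeks, and both groups were sampled 72 h after the final injection. The recovery group (n = 3) had the same 8 weeks of thioacetamide and then 8 weeks without injections. Recovery mice were therefore older at collection than either other group, and a control group of their age was not analysed here, so age and recovery cannot be told apart. The question asked of these genes was how their RNA differed between healthy, fibrotic and recovering liver.

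Notch receptors sit on the cell surface and are bound by Jagged or Delta-like ligands on the neighbouring cell. The protease Adam10 and the gamma-secretase complex then cut the receptor, and its inner part moves to the nucleus, where it joins the DNA-binding protein Rbpj and turns on repressor genes of the Hes and Hey families. In the liver, Jag1 and Notch2 are known for their part in bile duct formation, Dll4, Notch1 and Notch4 belong to blood vessel endothelium, and Notch3 is typical of smooth muscle cells and pericytes.

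All genes were compared on FPKM (fragments per kilobase of gene and per M mapped fragments) after division by the median-of-ratios factor of their library, called scaled FPKM here. Groups were tested with limma on log2(scaled FPKM + 0.1) over 14094 genes, with Benjamini-Hochberg adjustment over all of them. A gene is said to have risen or fallen where its adjusted p was under 0.05 and its fold change at least 2, the criteria of the study. Log2 fold changes (log2FC) are on this scale, where the added 0.1 draws the values of genes with low FPKM towards 0. Each group holds 3 separate mice. The estimated depth was 26.8 to 40.7 M fragments per library. The mean log2 factors by which libraries were divided differed by 0.64 in TAA against control and by -0.56 in recovery against TAA. Relative to FPKM as deposited, log2 fold changes are therefore lowered in the former comparison and raised in the latter. The summed scaled FPKM of 8 skeletal muscle genes was 40.9 in TAA replicate 3 and at most 0.0746 in any other library. In control replicate 1, the sum of 8 endothelial genes was 41.1, where the other control libraries had 67.1 and 69.2. Since whole liver was sequenced, fewer cells of a type and less RNA per cell cannot be told apart in any result.

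In fibrotic liver, both Jagged ligands and the target genes Hey1 and Heyl rose, and all of these fell again in the recovery group. With quantile normalization Jag2 and Hey1 no longer passed in TAA against control, nor did Jag1, Hey1 and Notch3 in recovery against TAA. The largest difference among the 10 genes on the scale with the added 0.1 was that of Heyl, at 4.43-fold in TAA against control. By the group means of scaled FPKM alone, that of Jag2 was larger, at 6.42-fold against 5.61-fold for Heyl. Receptors differed less: Notch3 fell in recovery against TAA, and Notch1, Notch2 and Notch4 stayed under 2-fold in each comparison. In TAA against control, 4 of the 10 genes passed both criteria, all upwards, where 25.0% of the tested genes passed in either direction and 17.0% upwards. In recovery against TAA, 5 of the 10 passed, all downwards, where 21.4% passed in either direction and 14.3% downwards. In recovery against control, 0 of the 10 passed, where 0.993% of the tested genes did, and 0 of the 10 had an unadjusted p under 0.05, beside 23.0% of the tested genes. The median log2FC of the 10 genes was 1.02, -0.97 and -0.01 in the same order, and that of all tested genes was 0.02, -0.01 and 0.01.

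**Figure D1:**
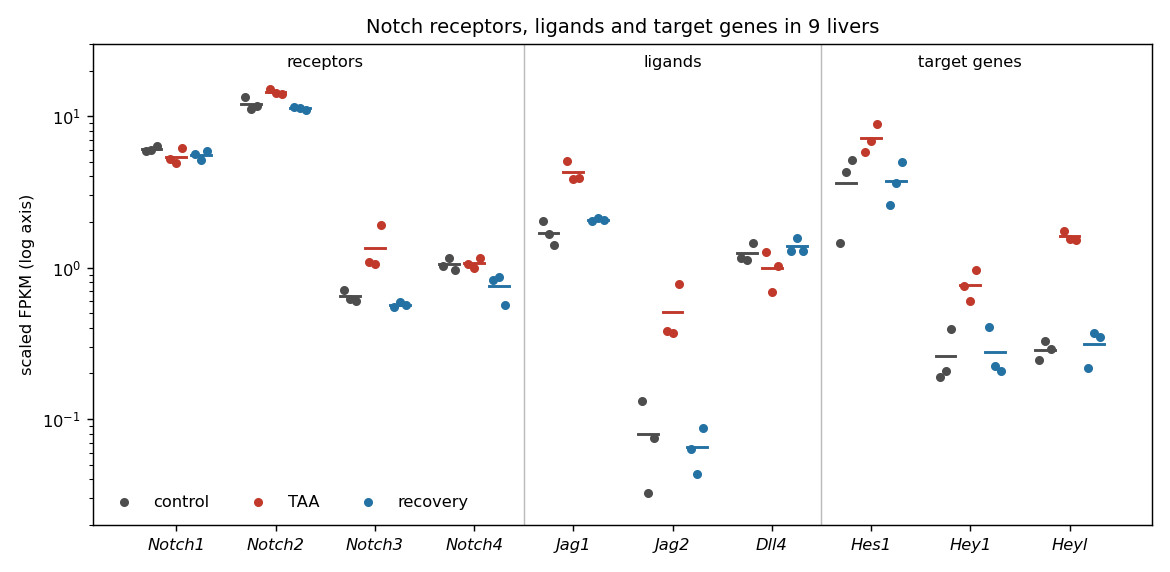
Scaled FPKM (log axis) of the 10 Notch genes in each of the 9 livers, with points for single mice and bars for group means. Heyl in the TAA group lies at 1.53 to 1.75, above all control and recovery mice, whereas Notch1 and Dll4 of the TAA and control groups overlap.

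Where these genes start is given with the sequence before the start for 3 of them, namely a gene that rose (Jag1), a gene that fell only in recovery against TAA (Notch3) and a gene that passed in no comparison (Dll4). In the deposited table (mm10), Notch1 lies at chr2:26457903-26516663, Jag1 at chr2:137081456-137116644 and Notch3 at chr17:32120820-32166852, all on the minus strand. Also on the minus strand are Jag2 at chr12:112907819-112929776 and Hey1 at chr3:8663359-8667256. On the plus strand are Dll4 at chr2:119325784-119335962, Notch2 at chr3:98013527-98150361, Notch4 at chr17:34564268-34588503, Hes1 at chr16:30064384-30067796 and Heyl at chr4:123233556-123249875. All 10 loci were the same in the GENCODE M21 annotation, where each is a protein-coding gene. Of the 10 genes, 7 were found in the RefSeq table of upstream sequences (GRCm38.p6), with 250 bases each before the start that RefSeq gives. This start can differ from that of the deposited locus: the windows of Jag2 and Notch1 lie wholly inside the locus, as do 124 bases of the Jag1 window, 27 of the Notch4 window and 11 of the Notch2 window. The CG pairs are in capitals, and bases inside the gene's own locus are left out.
Notch3, chr17:32166891-32167140, minus strand: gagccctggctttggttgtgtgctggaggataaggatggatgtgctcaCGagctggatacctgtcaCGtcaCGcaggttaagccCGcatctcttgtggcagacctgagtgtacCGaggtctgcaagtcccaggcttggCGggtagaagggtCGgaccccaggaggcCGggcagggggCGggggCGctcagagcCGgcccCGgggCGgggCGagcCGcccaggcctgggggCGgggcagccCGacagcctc
Jag1, chr2:137116645-137116770, minus strand: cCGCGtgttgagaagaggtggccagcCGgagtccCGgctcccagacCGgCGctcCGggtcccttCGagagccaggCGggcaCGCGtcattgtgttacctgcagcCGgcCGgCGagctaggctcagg
Dll4, chr2:119325534-119325783, plus strand: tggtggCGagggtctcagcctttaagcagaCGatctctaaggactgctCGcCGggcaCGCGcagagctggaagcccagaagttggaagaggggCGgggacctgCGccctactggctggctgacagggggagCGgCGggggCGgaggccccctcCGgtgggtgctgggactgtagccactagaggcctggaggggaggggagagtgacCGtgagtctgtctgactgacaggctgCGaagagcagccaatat

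The RefSeq windows held 17 CG pairs in Notch3, 14 in Dll4 and 20 in Jag1, of which 14 lie before the deposited locus, where the median of all 32851 windows of this length was 6 and the upper quartile 16. The window of Jag2, inside its deposited locus, held 54, a count that 0.0152% of the windows reach. The Notch2 window held 34, that of Notch1, inside its locus, 16 and that of Notch4, another gene that passed in no comparison, 4. The letters TGGGAA, the core bound by Rbpj, searched on both strands, were in 21.6% of all windows and in 0 of the 7, and TATAAA was in 12.4% of all windows and in 0 of the 7. The target genes Hes1, Hey1 and Heyl had no window, so their upstream sequence was not searched. Sequence outside these windows was not searched either.

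Notch2, the receptor tied to bile duct formation, was the most abundant of the 10 genes in every group. Its scaled FPKM was 13.4, 11.1 and 11.6 in the control mice, 15.1, 14.3 and 14.1 in the TAA mice, and 11.6, 11.4 and 11.05 in the recovery mice. Every TAA mouse lay above every control and recovery mouse, although the gaps were small. The log2FC was 0.27 (SE 0.10; adjusted p = 0.0503, limma with Benjamini-Hochberg) in TAA against control and -0.35 (SE 0.08; adjusted p = 0.00878) in recovery against TAA, a 1.28-fold difference that did not reach 2-fold. Of its exonic bases, 541 are shared with another gene on the same strand.

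Notch1, a receptor of endothelium and many other cell types, was the second most abundant receptor. Scaled FPKM of Notch1 was 5.91, 5.98 and 6.39 in the control mice, 5.19, 4.89 and 6.13 in the TAA mice, and 5.63, 5.15 and 5.90 in the recovery mice. The TAA mice overlapped with both other groups. The log2FC was -0.18 (95% interval -0.45 to 0.10; adjusted p = 0.236, limma) in TAA against control and 0.05 (-0.24 to 0.33; adjusted p = 0.779) in recovery against TAA, and with FPKM left as deposited both signs turned, to 0.45 and -0.51. Annotated exons of Notch1 share 1482 bases with genes on the other strand, and the strand setting of the counting is not given in the sources used here.

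Notch3, the receptor of smooth muscle cells and pericytes, was the receptor with the largest differences in both comparisons with the TAA group. In the scaled FPKM, Notch3 had 0.713, 0.619 and 0.604 in the control mice, 1.08, 1.06 and 1.90 in the TAA mice, and 0.547, 0.593 and 0.564 in the recovery mice. All TAA mice lay above all others, and TAA replicate 3, the library with skeletal muscle RNA, was the highest. The log2FC was 0.91 (SE 0.24; adjusted p = 0.0145, limma) in TAA against control, which is 1.88-fold and short of the fold criterion, and -1.07 (SE 0.24; adjusted p = 0.00696) in recovery against TAA. Without TAA replicate 3 these values were 0.65 (adjusted p = 0.0279) and -0.81 (adjusted p = 0.0126), so that Notch3 no longer passed in recovery against TAA, whereas without TAA replicate 1 or 2 it also passed in TAA against control, at 1.04 and 1.05. With quantile normalization its value in recovery against TAA was -0.47 (adjusted p = 0.162) and did not pass, and with upper-quartile scaling it passed in TAA against control, at 1.04, as it did with FPKM left as deposited, at 1.49. Of its exonic bases, 488 are shared with an antisense gene.

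Notch4, an endothelial receptor, did not pass in any comparison. The scaled FPKM values were 1.03, 1.16 and 0.962 in the control mice, 1.06, 0.989 and 1.15 in the TAA mice, and 0.833, 0.865 and 0.571 in the recovery mice. Control and TAA mice overlapped, and the recovery mice were below both. The log2FC of recovery was -0.46 (95% interval -0.91 to -0.01; adjusted p = 0.0807, limma) against TAA and -0.44 (-0.90 to 0.02; adjusted p = 0.235) against control, the lowest value of the 10 genes in the latter comparison.

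Jag1, the ligand for which bile duct formation depends on dosage, rose in the TAA group. It had a scaled FPKM of 2.04, 1.66 and 1.41 in the control mice, 5.09, 3.86 and 3.93 in the TAA mice, and 2.04, 2.12 and 2.07 in the recovery mice. The TAA mice lay far above the rest, and the recovery mice lay just above the highest control mouse. The log2FC was 1.29 (SE 0.18; adjusted p = 7.22e-04, limma) in TAA against control and -1.001 (SE 0.14; adjusted p = 7.61e-04) in recovery against TAA. The latter sat at the fold criterion, and it missed it with quantile normalization (-0.86) and without TAA replicate 1 (-0.87), recovery replicate 1 (-0.99) or recovery replicate 3 (-0.999). In recovery against control the log2FC was 0.29 (95% interval -0.10 to 0.67; adjusted p = 0.334).

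Jag2, the other Jagged ligand, was near the limit of detection in healthy liver and rose in the TAA group. In scaled FPKM it had 0.131, 0.0324 and 0.0751 in the control mice, 0.380, 0.370 and 0.780 in the TAA mice, and 0.0637, 0.0434 and 0.0876 in the recovery mice. The lowest TAA mouse was above the highest mouse of either other group. Behind these values stood an estimated 6.83 to 20.2 fragments in control libraries and 132 to 288 in TAA libraries. The log2FC was 1.74 (SE 0.34; adjusted p = 0.00358, limma) in TAA against control and -1.83 (SE 0.30; adjusted p = 0.00174) in recovery against TAA. TAA replicate 3 was again the highest, and without it the values were 1.44 (adjusted p = 0.00997) and -1.54 (adjusted p = 0.00366). With quantile normalization the value in TAA against control was 0.90 (adjusted p = 0.0646) and did not pass.

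Dll4, the Delta-like ligand of arterial and sprouting endothelium, did not follow the Jagged ligands. Dll4 had a scaled FPKM of 1.15, 1.13 and 1.45 in the control mice, 1.28, 0.687 and 1.02 in the TAA mice, and 1.29, 1.58 and 1.29 in the recovery mice. Control and TAA mice overlapped, and the recovery mice lay above the TAA mice by a narrow margin. The log2FC was -0.32 (95% interval -0.87 to 0.22; adjusted p = 0.277, limma) in TAA against control and 0.47 (-0.05 to 0.999; adjusted p = 0.119) in recovery against TAA, and with FPKM left as deposited the signs turned, to 0.26 and -0.04. Of its exonic bases, 214 are shared with an antisense gene.

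Hes1, a repressor that responds to Notch in many tissues, was the target gene with the highest level and the widest spread. Levels of Hes1, in scaled FPKM, were 1.46, 4.25 and 5.16 in the control mice, 5.80, 6.84 and 8.83 in the TAA mice, and 2.61, 3.65 and 5.01 in the recovery mice. The TAA mice lay above all others, and control replicate 1 was the lowest of all 9 mice. The log2FC was 1.12 (SE 0.43; adjusted p = 0.0590, limma) in TAA against control, which did not pass, and -0.94 (SE 0.25; adjusted p = 0.0144) in recovery against TAA, which is 1.92-fold. It passed in TAA against control with upper-quartile scaling (1.26, adjusted p = 0.0420), with all 9 libraries in 1 fit (adjusted p = 0.0439) and with FPKM left as deposited (1.74, adjusted p = 0.00915). Without control replicate 1, the library with low endothelial genes, the first value was 0.58 (adjusted p = 0.0443), and without control replicate 3 it was 1.46 (adjusted p = 0.0273) and passed both criteria. In recovery against TAA, Hes1 passed both criteria without TAA replicate 1 (-1.08) or recovery replicate 3 (-1.17), and also with upper-quartile scaling (-1.05) or FPKM left as deposited (-1.49). Without TAA replicate 3, in which Hes1 was highest, the values were 0.96 (adjusted p = 0.176) in TAA against control and -0.78 (adjusted p = 0.0580) in recovery against TAA.

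Hey1, a repressor downstream of Notch in vessels and heart, rose from a low level. Its scaled FPKM was 0.189, 0.208 and 0.391 in the control mice, 0.752, 0.604 and 0.960 in the TAA mice, and 0.404, 0.226 and 0.208 in the recovery mice. All TAA mice lay above all others, and 1 mouse of each other group stood near 0.4. The log2FC was 1.29 (SE 0.27; adjusted p = 0.00552, limma) in TAA against control and -1.22 (SE 0.26; adjusted p = 0.00630) in recovery against TAA. With quantile normalization these were 0.43 (adjusted p = 0.186) and -0.51 (adjusted p = 0.174), and neither passed.

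Heyl, a related repressor found in smooth muscle cells and pericytes, had the largest log2FC of the 10 genes in both comparisons with the TAA group on the scale with the added 0.1, although the group means of Jag2 differed by more. Levels of Heyl, in scaled FPKM, were 0.244, 0.328 and 0.289 in the control mice, 1.75, 1.55 and 1.53 in the TAA mice, and 0.218, 0.368 and 0.350 in the recovery mice. The TAA mice were close to each other and lay at 1.53 or above, where the highest other mouse had 0.368. An estimated 27.6 to 50.8 fragments stood behind the control values and 407 to 468 behind the TAA values. The log2FC was 2.15 (SE 0.17; adjusted p = 5.41e-05, limma) in TAA against control and -2.07 (SE 0.20; adjusted p = 1.39e-04) in recovery against TAA. Heyl was not highest in TAA replicate 3, in which it had its lowest TAA value.

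The adjusted p alone, at any fold, was under 0.05 for 5 of the 10 genes in TAA against control (54.5% of tested genes), for 7 in recovery against TAA (50.5%) and for 0 in recovery against control (2.70%). Groups did not overlap for 7, 9 and 4 of the 10 genes in these comparisons, beside 63.6%, 60.3% and 30.2% of the tested genes. Both comparisons with the TAA group share its 3 libraries, so the rise of a gene in one and its fall in the other do not rest on separate mice.

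**Figure D2:**
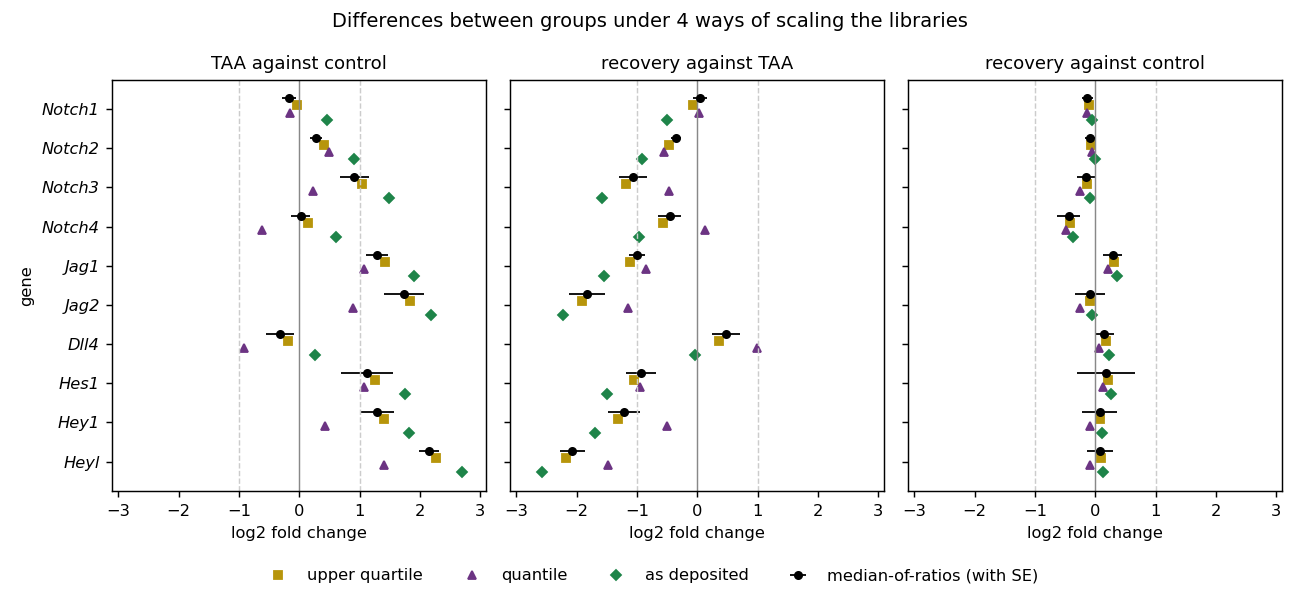
Log2 fold changes of the 10 Notch genes in the 3 comparisons under 4 ways of scaling the libraries, with the SE on the median-of-ratios values and dashed lines at 2-fold. Heyl stays beyond the 2-fold line under each scaling in both comparisons with the TAA group, whereas Notch1 and Dll4 of TAA against control change sign with FPKM left as deposited and Notch4 does so with quantile normalization.

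The order of the levels was compared within each group, since FPKM are per length. In the control group it was Notch2, Notch1, Hes1, Jag1, Dll4, Notch4, Notch3, Heyl, Hey1 and Jag2, from high to low. Of these neighbours, Hes1 and Jag1, Jag1 and Dll4, Dll4 and Notch4, and Heyl and Hey1 overlapped between mice. In the recovery group the order was the same. In the TAA group Hes1 stood above Notch1, with overlap, and Heyl had moved from the eighth to the fifth place, above Notch3, Notch4 and Dll4, where neighbours from Heyl down to Jag2 overlapped.

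The share of the TAA difference that was left in the recovery group was computed on the log2 scale for the genes that rose. Each SD here covers the 3 recovery mice only, with the control and TAA means held fixed. The share was 22.3% ± 1.93 (SD, n = 3) for Jag1, with 20.6% to 24.4% in the single mice. The 95% interval of its log2FC in recovery against control was -0.10 to 0.67. Heyl had 3.53% ± 14.3, Hey1 5.42% ± 30.2 and Jag2 -5.39% ± 11.2 left (SD, n = 3 each). With quantile normalization Jag2 had -28.7%. The median over the 3520 genes called in TAA against control was 16.4%, with quartiles of 3.38% and 29.8%, so that Jag1 lay within this range and Jag2 below it. Against the control group none of the 10 genes passed, and the 95% intervals of log2FC reached from -0.98 to 1.34 for Hes1, the widest, and from -0.30 to 0.13 for Notch2, the narrowest.

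Ratios between Notch genes within 1 library do not depend on how libraries are scaled. In healthy liver, Jag1 had 1.36 times the FPKM of Dll4, and in the TAA group 4.39 times, with 1.501 times in the recovery group. On the log2 scale, Dll4 relative to Jag1 was -0.82, -0.56 and 0.04 in the control mice, -1.99, -2.48 and -1.94 in the TAA mice, and -0.66, -0.42 and -0.68 in the recovery mice. The TAA mice were below all others, a difference of -1.69 against control and of 1.55 in recovery against TAA. Jag2 relative to Jag1 was higher in each TAA mouse than in each control or recovery mouse, by 1.24 against control. This value was 0.27 with a pseudocount of 0.1 in place of 0.01 and 0.81 without control replicate 2.

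Among the receptors, Notch2 had 1.97 times the FPKM of Notch1 in control livers, 2.69 times in TAA livers and 2.04 times in recovery livers. Notch1 relative to Notch2 was below the control mice in every TAA mouse, with a difference of -0.45 on the log2 scale. Notch3 relative to Notch2 was higher by 0.72 in the TAA group, with no overlap, and by 0.43 without TAA replicate 3. Among the target genes, Heyl relative to Hes1 was higher by 1.30 in the TAA group but overlapped with control replicate 1, and Hey1 relative to Hes1 overlapped in all comparisons. With 3 against 3 mice the exact permutation test (two-sided) cannot go below p = 0.1, and the smallest adjusted p over the 51 relations within libraries was 0.196, so none of these differences could pass.

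**Figure D3:**
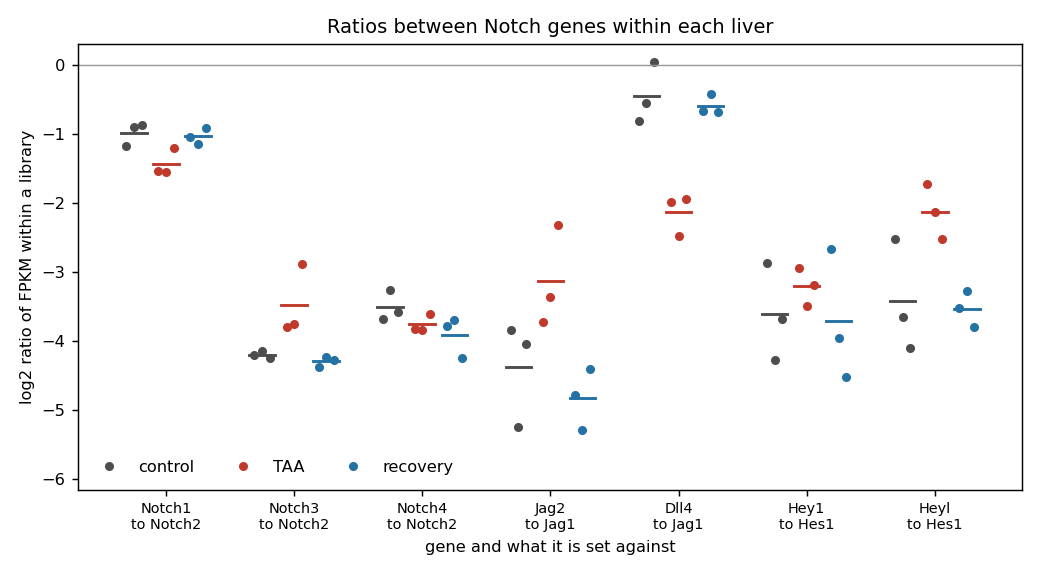
Log2 ratio of FPKM of 1 Notch gene to another in the same library, with points for single mice and bars for group means. Dll4 relative to Jag1 is lowest in the 3 TAA mice, at -2.48 to -1.94, and back at -0.68 to -0.42 in the recovery mice.

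Marker genes of liver cell types were set beside the Notch genes, since these belong to different cells. Hepatocyte markers were high in all libraries (summed scaled FPKM of 6 genes 21083 to 46764), led by Alb, and 3 of the 6 (Apoa1, Hnf4a and Tat) fell in TAA against control. Markers of cholangiocytes, the cells of bile ducts, moved most: the sum of 8 genes was 18.8 to 25.3 in control, 302 to 451 in TAA and 33.3 to 44.2 in recovery libraries, and 7 of the 8 rose in TAA against control. Of 8 stellate cell and fibroblast markers, 6 rose, among them Col1a1 and Col3a1, and their sum was 76.8 to 129, 295 to 374 and 108 to 144 in the same order. Of 7 smooth muscle and pericyte markers, 3 rose (Acta2, Tagln and Cspg4), with sums of 16.1 to 20.4, 37.7 to 42.3 and 14.5 to 18.6. None of the 8 markers of all vessel endothelium passed in any comparison by limma (unadjusted p under 0.05 for 1, 4 and 1 of them). The adjusted p was under 0.05 for 0, 4 and 0 of them, beside 54.5%, 50.5% and 2.70% of the tested genes. In recovery against TAA all 8 had a log2FC above 0, with a median of 0.42. The sum of these endothelial genes was 41.1 to 69.2 in control, 44.0 to 62.0 in TAA and 67.0 to 72.9 in recovery libraries. Jag1, Jag2, Notch2, Notch3, Hes1, Hey1 and Heyl had their highest levels in the same 3 libraries as the cholangiocyte, stellate cell and smooth muscle lists. TAA and control libraries did not overlap, in either direction, for 63.6% of the tested genes. The part of cell numbers in the differences of the Notch genes was not tested. Of the other lists, 2 of 5 tested arterial endothelial genes (Cxcr4 and Gja5), 0 of 6 sinusoidal endothelial genes (limma, 1 at an unadjusted p under 0.05), 3 of 7 macrophage genes and 1 of 7 lymphocyte genes rose in TAA against control. Among all 14094 tested genes, 2389 (17.0%) rose and 1131 fell in this comparison. Of the macrophage genes, Clec4f and Timd4 had lower means in TAA mice (21.8 and 1.52) than in control mice (27.4 and 2.48). Of 2 tested adrenal gland genes, Cyp21a1 rose, whereas Star was lower, with means of 0.548 in control and 0.306 in TAA mice. The untested adrenal genes Cyp11a1 and Cyp11b1 had means of 0 in the TAA group and stood at 0.618 and 0.719 in recovery replicate 3. The sum of the adrenal genes was 3.58 in that library, where the other recovery libraries had 0.537 and 0.527. None of the pancreas genes reached the minimum FPKM.

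Notch genes were also set against marker lists within the same library. For Heyl against the stellate cell and fibroblast genes, the difference of TAA against control was 0.07 on the log2 scale, with overlap. It was -0.26 with a pseudocount of 0.1. Notch3 relative to the same genes had a difference of -1.37 and no overlap, and relative to smooth muscle and pericyte genes a difference of -0.32, with overlap, which ranged from -0.50 to -0.075 without control replicate 1 or 3. By limma the 8 stellate cell and fibroblast genes had log2FC of 0.65 to 5.91 (median 1.44), where Heyl had 2.15 and Notch3 0.91. Mean scaled FPKM of Col1a1 and Col3a1 was 1.01 and 3.12 in control and 68.2 and 97.7 in TAA mice. Ratios to this list without these 2 collagens were not computed. Heyl relative to the smooth muscle and pericyte genes was higher by 1.13 in the TAA group, where TAA replicate 3 overlapped with the control mice. Jag1, Notch2 and Hes1 relative to the cholangiocyte genes had differences of -1.99, -3.05 and -2.17 in TAA against control. By limma their own log2FC were not below 0, at 1.29, 0.27 and 1.12, where the median of the cholangiocyte genes was 2.83. Relative to the genes of all vessels, Notch4 had a difference of -0.84 in recovery against control and of -0.93 in recovery against TAA, with no overlap in either. Control replicate 1 had the highest of these Notch4 values, at -1.72, where the other control mice had -2.40 and -2.58 and the recovery mice -2.84, -2.94 and -3.44. Notch1 had -0.49 and -0.38 in the same comparisons, with no overlap, but -0.24 in recovery against control without control replicate 1, the library with low endothelial genes, and Dll4 overlapped in all 3.

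**Figure D4:**
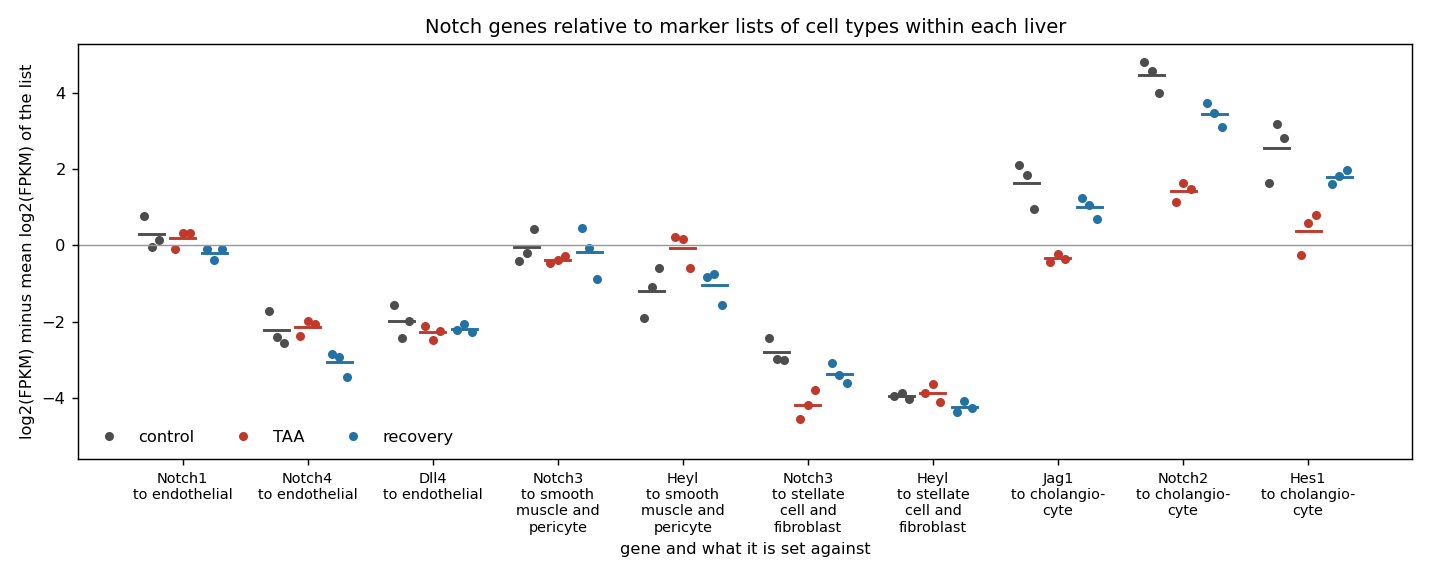
Log2 FPKM of Notch genes minus the mean log2 FPKM of a marker list in the same library, with points for single mice and bars for group means. Heyl is near -4 relative to the mean of the stellate cell and fibroblast list in all 3 groups. The log2FC of the genes of that list ranged from 0.65 to 5.91 in TAA against control. Notch4 relative to the endothelial list is lowest in the recovery mice.

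Of 54 other genes of the pathway, listed by role, 46 were tested. In TAA against control 7 of them rose and 0 fell, beside the 25.0% of all tested genes that passed, with a median log2FC of 0.04. In recovery against TAA 6 fell and 1 rose, beside 21.4% of all tested genes, and in recovery against control 1 rose, beside 0.993%. Neurl1b, a ubiquitin ligase of the Neuralized family that acts on Notch ligands, had the largest difference. Neurl1b had a scaled FPKM of 0.150, 0.213 and 0.229 in the control mice, 3.15, 3.64 and 3.60 in the TAA mice, and 0.476, 0.297 and 0.567 in the recovery mice. The groups did not overlap, with the recovery mice between the others. The log2FC was 3.59 (SE 0.18; adjusted p = 8.12e-06, limma) in TAA against control and -2.73 (SE 0.21; adjusted p = 5.02e-05) in recovery against TAA. Neurl1a, its relative, had 2.42 and -2.18.

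Of the genes of receptor turnover, Numbl, a relative of the Notch inhibitor Numb, had a log2FC of 2.44 in TAA against control and -2.09 in recovery against TAA. Dtx3, a ubiquitin ligase of the Deltex family, had 1.53 and -1.36, the latter at -0.98 and short of 2-fold with quantile normalization. Dlk1, a non-canonical ligand known from fetal liver, was listed at 0 in all 3 control mice and had 0.151, 0.351 and 0.374 scaled FPKM in the TAA mice and at most 0.0131 in the recovery mice, and it passed in both comparisons. Aph1b, a subunit of gamma-secretase, had log2FC of 1.57 and -1.62, the former at 0.98 and short of 2-fold with quantile normalization. Psen2, a catalytic subunit, moved the other way: it was at 65.5, 50.9 and 55.6 scaled FPKM in the control mice, 34.9, 31.2 and 35.1 in the TAA mice, and 72.7, 73.7 and 67.1 in the recovery mice, and it rose in recovery against TAA (log2FC 1.08, adjusted p = 6.21e-05, limma). The value was 0.96 with upper-quartile scaling, 0.61 with quantile normalization and 0.52 with FPKM left as deposited, each short of 2-fold. Aph1a and Aph1c, relatives of Aph1b named after their values were seen, also stayed short of 2-fold. Aph1a was far more abundant, with mean scaled FPKM of 38.7 in control, 20.7 in TAA and 32.4 in recovery mice. Its log2FC was -0.91 in TAA against control (adjusted p = 3.27e-04, limma) and 0.64 in recovery against TAA (adjusted p = 0.00593). Aph1c had 0.67 and -0.99. Other scalings were not computed for Aph1a and Aph1c, and the mean log2 factors differed by 0.64 and -0.56 in these comparisons.

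Rbpj, the DNA-binding partner of all Notch receptors, had a log2FC of -0.01 in TAA against control (95% interval -0.24 to 0.23; adjusted p = 0.956, limma), and 0.00 with quantile normalization, 0.13 with upper-quartile scaling and 0.62 with FPKM left as deposited. Adam10, which makes the first cut of the bound receptor, had 0.79 (SE 0.12; adjusted p = 0.00129) and -0.69 (SE 0.10; adjusted p = 7.78e-04) in recovery against TAA, both short of 2-fold. Adam10 passed in TAA against control with quantile normalization (1.03) and in both comparisons with FPKM left as deposited (1.42 and -1.24). None of the 5 glycosylation genes, 15 genes of the nuclear complex and its corepressors or 1 tested gene of the other Hes and Hey genes passed in any comparison by limma. An unadjusted p under 0.05 was found for 0, 1 and 0 of the glycosylation genes and for 6, 6 and 3 of the nuclear genes, beside 8455, 7997 and 3242 of the 14094 tested genes in the same order.

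Dtx4, another Deltex ligase, was the only listed pathway gene that passed in recovery against control. Its scaled FPKM was 1.97, 2.65 and 2.17 in the control mice, 5.07, 5.22 and 5.22 in the TAA mice, and 5.52, 5.68 and 6.35 in the recovery mice. The recovery mice lay above the TAA mice, and both groups lay above all control mice. The log2FC was 1.17 (SE 0.14; adjusted p = 3.07e-04, limma) in TAA against control and 1.34 (SE 0.14; adjusted p = 0.0138) in recovery against control. The latter missed the adjusted p without control replicate 3 (1.32, adjusted p = 0.0580), recovery replicate 2 (1.36, adjusted p = 0.0709) or recovery replicate 3 (1.28, adjusted p = 0.0622), and with the replicate block (adjusted p = 0.0558). Hes6 and Itch, chosen after their values were seen, also stayed away from control: Hes6, a relative of Hes1, had a log2FC of -0.88 in TAA and -0.80 in recovery against control (adjusted p = 7.02e-04 and 0.0496, limma), and Itch, a ubiquitin ligase, had -0.87 and -0.58 (adjusted p = 5.14e-04 and 0.0194). These 2 were short of 2-fold. Other scalings were not computed for Hes6 and Itch, and the mean log2 factors differed by 0.64 in TAA against control and by 0.08 in recovery against control.

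**Figure D5:**
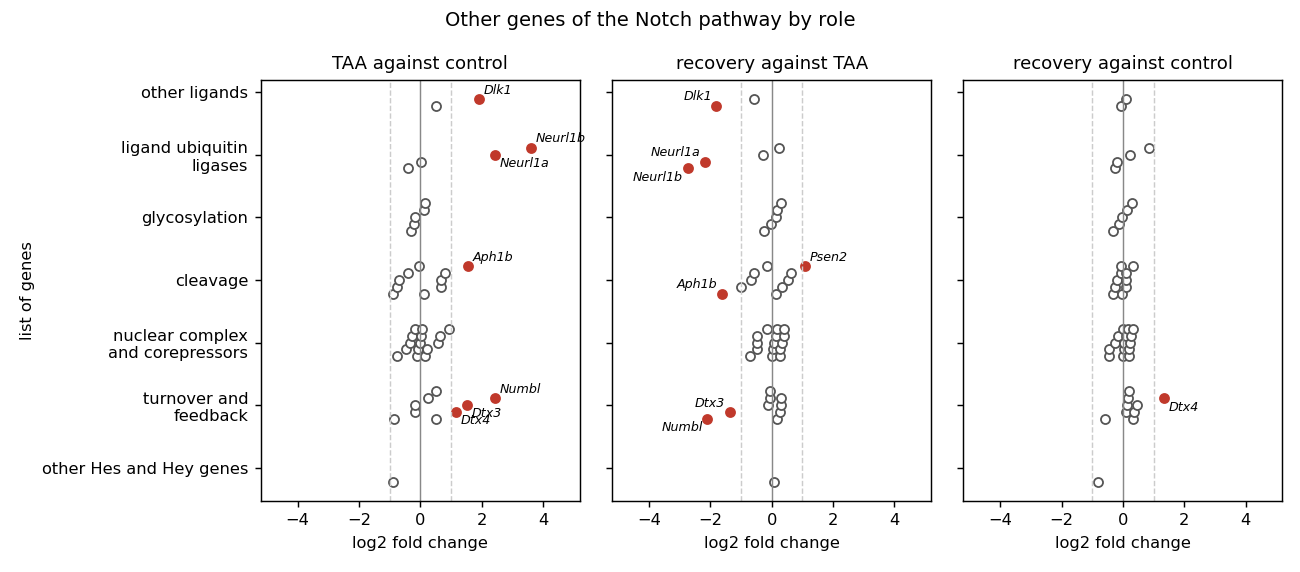
Log2 fold changes of the 46 other tested genes of the Notch pathway, by role, in the 3 comparisons, with filled points for genes that passed both criteria and dashed lines at 2-fold. Neurl1b, Neurl1a, Numbl and Aph1b lie beyond 2-fold upwards in TAA against control and downwards in recovery against TAA, and Dtx4 is the only filled point in recovery against control; the Dlk1 value depends on the added 0.1, since the control mice were listed at 0.

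Genes with a profile most similar to some of the Notch genes over the 9 libraries were found by the root mean square (RMS) difference of centred log2 values, among tested genes whose mean FPKM was 1 or more. Jag1 was nearest to Bcl2 (RMS difference 0.0965), Tuba1c (0.126) and Ywhah (0.135). Heyl was nearest to Cyp4f16 (0.152), Ezr (0.173) and Selenon (0.179), and Hey1 to Chpf (0.158). Notch3 was nearest to Thop1 (0.169) and Hes1 to Tmsb4x (0.255), the largest of these distances. The 9 libraries share their groups.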

How the data were processed

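Liver mRNA libraries of 9 mice were analysed, grouped by the treatment that their labels give. The authors filtered the reads, mapped them to mm10 with HISAT2 2.2.1, counted them on genes with featureCounts 1.5.0-p3 and deposited the values as FPKM. Read counts were not used here, and neither were the small RNA libraries.

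Each library was scaled by its median-of-ratios factor over the 14005 genes above 0 in all libraries (control 0.827 to 0.878, TAA 1.29 to 1.38, recovery 0.893 to 0.907). The 14094 genes whose mean FPKM reached 0.1 were tested on log2(scaled FPKM + 0.1) with limma 3.58.1 (R 4.3.3; eBayes, trend), each comparison on the 6 libraries of its groups, with Benjamini-Hochberg adjustment. A gene was called at an adjusted p under 0.05 and a fold change of at least 2. Ratios within libraries used log2(FPKM + 0.01). Depth was read from the step size of low FPKM values, of which 54.3% to 65.2% per library were whole numbers of fragments within 0.08, where 16% would be by chance, so fragment numbers are estimates and no count test was run. The scripts were tested on simulated data.

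Named were all 10 genes, every other listed pathway gene called in any comparison, Rbpj and Adam10 whatever their values, and the 3 most similar genes of a member or fewer. Hes6, Itch, Aph1a and Aph1c were added after their values were seen. Some genes that this rule names are not reported here. The genes and lists were chosen with earlier results of these data known. Alternatives covered the pseudocount, the filter, the scaling, the libraries in a fit, the variance trend, the replicate block, the test and the leaving out of each mouse. Gene symbols that had been turned into dates (27) were matched by identifier. Columns of 9 mice were all mapped.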

Additional observations from a re-analysis of the deposited data

How the results depend on the processing

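Counts of called genes depended on how low values were treated and on the fold threshold. In TAA against control, 1780 genes, 1 Notch gene (Heyl) and 2 other pathway genes were called with a pseudocount of 1; 2204, 1 and 4 with a mean FPKM of at least 1, where 5 of the 10 Notch genes were tested; and 1441, 1 and 4 with limma's treat against 2-fold. In recovery against TAA the same settings called 1460, 0 and 3, then 1895, 1 and 4, then 1084, 1 and 3. Quantile normalization called 2 Notch genes in each of these comparisons, and FPKM left as deposited called 16 and 14 other pathway genes. In recovery against control, 80 genes were called with a pseudocount of 1, 48 without the filter, 235 with all 9 libraries in 1 fit, 85 without the variance trend and 0 with treat, which also left 0 pathway genes. Leaving out 1 mouse at a time gave 32 to 106 genes and 0 to 1 pathway genes in recovery against control. It gave 4 to 5 Notch genes in each comparison with the TAA group and 0 in recovery against control.

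Signs turned for small values. With FPKM left as deposited, TAA against control had 0.45 for Notch1, 0.26 for Dll4 and 0.62 for Rbpj, recovery against TAA had -0.51 for Notch1, -0.044 for Dll4 and -0.38 for Dtx4, and recovery against control had 0.013 for Aph1b. Quantile normalization gave Notch4 -0.62 and 0.13 in the comparisons with the TAA group, Rbpj 0.0014 in TAA against control, and Hey1 -0.085 and Heyl -0.083 in recovery against control. Upper-quartile scaling gave Rbpj 0.13 in TAA against control and Notch1 -0.071 in recovery against TAA. With a pseudocount of 0.1 in the ratios within libraries, Notch3 relative to smooth muscle and pericyte genes was -0.011 in recovery against TAA, and Heyl relative to stellate cell and fibroblast genes was -0.26 in TAA against control. The cause of these turns was not tested.

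Leaving out 1 mouse turned the sign of some values near 0. In TAA against control the values ranged from -0.035 to 0.087 for Notch4 and from -0.060 to 0.026 for Rbpj, and in recovery against TAA from -0.022 to 0.14 for Notch1. In recovery against control they ranged from -0.29 to 0.11 for Jag2, -0.36 to 0.52 for Hes1, -0.15 to 0.31 for Hey1, -0.027 to 0.25 for Heyl, -0.012 to 0.17 for Adam10, -0.21 to 0.050 for Aph1b and -0.011 to 0.39 for Neurl1a. Ratios within libraries in recovery against control ranged from -0.15 to 0.010 for Notch1 to Notch2, -0.33 to 0.099 for Dll4 to Jag1, -0.62 to 0.31 for Hey1 to Hes1, -0.44 to 0.35 for Heyl to Hes1, -0.41 to 0.023 for Dll4 to endothelial genes, and, relative to smooth muscle and pericyte genes, -0.43 to 0.24 for Notch3 and -0.21 to 0.45 for Heyl. In TAA against control they were -0.27 to 0.14 for Notch1 and -0.082 to 0.35 for Notch4 relative to endothelial genes and -0.047 to 0.20 for Heyl relative to stellate cell and fibroblast genes. In recovery against TAA they were -0.25 to 0.022 for Notch4 to Notch2, -0.017 to 0.18 for Dll4 to endothelial genes and -0.10 to 0.56 for Notch3 to smooth muscle and pericyte genes.

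Replicate numbers did not pair the mice: deviations of same-numbered mice correlated between -0.07 and 0.12. With the replicate block, Hes1 passed in TAA against control (adjusted p = 0.0171, limma), and in recovery against control 17 genes and 0 other pathway genes were called. Depth limits Jag2 and Hey1 most, since few fragments stand behind their control values.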
